A study of Mus musculus with 6 samples.

Results

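The Ets1-Fli1 and Ets2-Erg loci are 2 pairs of neighbouring genes that encode transcription factors of the ETS family. The 4 genes were taken, of 21190 protein-coding genes whose transcription start site (TSS) lay in a bin with data in every condition, by the 500 kb bin that holds their TSS, which gave 2 of 5019 bins. They were selected on measured values, namely the change in compartment score and in interaction profile of these bins between the conditions given here. Those values are therefore given as descriptions, and no test was run on them.

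ETS factors share a DNA-binding domain, the ETS domain, that recognises a short purine-rich core, GGAA. Ets1 and Ets2 are closely related factors that are phosphorylated downstream of Ras and MAP kinase signalling, whereas Fli1 and Erg are closely related factors best known for their roles in endothelial and blood-forming cells. Each locus holds a member of either subgroup side by side, an arrangement attributed to duplication of an ancestral pair. In Hi-C data, the first principal component (PC1) of the correlation matrix of a chromosome separates the A compartment, gene-rich and largely active chromatin, from the B compartment, gene-poor and largely inactive chromatin.

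The Hi-C libraries came from the mouse muscle cell line C2C12, which proliferates as myoblasts and fuses into multinucleated myotubes in low-serum medium, and cells of passage 3 were used. Myoblasts were plated sparsely and harvested on day 0, after 72 h of growth. Myotubes came from densely plated cultures that were switched to differentiation medium on day 0 and harvested on day 3. AraC-treated myotubes were given cytosine arabinoside, a nucleoside that kills dividing cells, at 10 µg/ml from day 3 and were harvested on day 7 (given as values after AraC), so that treatment and the longer culture cannot be told apart. All conditions derive from a single cell line, and day 3 cultures still held some undifferentiated myoblasts. Each condition had 2 libraries, amplified in 2 PCR reactions except for myoblast replicate 2 and AraC-treated replicate 1, which had 4, and the libraries of a condition were pooled by the authors into 1 matrix. Transcript levels were not analysed here. No spread between replicates can therefore be given for any value, and the depth cannot be read from a matrix of coefficients. Data were present in 5022 bins of myoblasts, and in 5030 and 5035 bins of myotubes without and with AraC.

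On mouse chromosome 9 (mm10), Ets1 (ENSMUSG00000032035.15) spans 32636221 to 32757820 on the forward strand and lies wholly within the bin from 32500001 to 33000000. Fli1 (ENSMUSG00000016087.13) runs the other way, from its TSS at 32542861 down to 32422204, so that 35.5% of its length lies in that bin and 64.5% in the bin before it. The genes are 93.4 kb apart, and no other protein-coding TSS lies in the bin. On chromosome 16, Ets2 (ENSMUSG00000022895.16) spans 95702075 to 95721051 on the forward strand, within the bin from 95500001 to 96000000. Erg (ENSMUSG00000040732.20) runs the other way, from its TSS at 95586593 down to 95359169, with 38.1% of its length in that bin and 61.9% in the bin before it. Erg and Ets2 are 115 kb apart, and Psmg1, a proteasome assembly chaperone gene, has its TSS in the same bin. Both loci thus have the same head-to-head order, with the TSS of either gene of a pair in 1 bin, so the values of Ets1 and Fli1 are identical at this resolution, as are those of Ets2 and Erg.

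The RefSeq annotation (GRCm38.p6) places starts of Erg in 2 neighbouring bins, which differed in PC1, and the 250 bases before the outermost and the innermost of these starts are therefore shown in the direction of transcription. Capitals mark the ETS core GGAA or its reverse complement TTCC. The first lies at chr16:95586594-95586843 on the reverse strand, in the bin that also holds Ets2. The second lies at chr16:95459349-95459598 on the reverse strand, in the bin before it.
Erg, outermost start: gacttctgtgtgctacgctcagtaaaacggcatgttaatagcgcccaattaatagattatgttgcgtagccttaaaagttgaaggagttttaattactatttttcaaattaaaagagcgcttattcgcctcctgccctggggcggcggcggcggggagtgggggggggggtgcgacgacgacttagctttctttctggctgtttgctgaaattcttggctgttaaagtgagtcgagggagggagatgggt
Erg, innermost start: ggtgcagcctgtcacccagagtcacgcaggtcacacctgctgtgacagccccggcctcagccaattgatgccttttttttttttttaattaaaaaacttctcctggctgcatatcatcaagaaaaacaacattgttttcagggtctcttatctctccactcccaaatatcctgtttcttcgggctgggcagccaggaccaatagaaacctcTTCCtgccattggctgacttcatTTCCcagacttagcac
The outermost stretch held 0 cores and 14 CpG dinucleotides, and the innermost held 2 cores and 3 CpG. A further RefSeq stretch of Erg, between 95530366 and 95530615 in the same bin as Ets2, held 4 cores. The RefSeq stretch before Ets2 overlaps 1 exon annotated by GENCODE and is not printed. It held 1 core and 25 CpG, with a GC content of 71.6%. Of 32851 RefSeq promoters of this length, 93.4% held at least 1 core on either strand, with a median of 3. The longer letters CGGAAG or CTTCCG, which contain the core, were in 13.6% of those promoters and in 0 of the Erg and Ets2 stretches, which says only that these letters are not in these windows. RefSeq promoters were matched for 2 of the 4 genes.

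The bins that hold the 2 gene pairs moved in opposite directions between the compartments. In myoblasts both lay close to the boundary between A and B. In myotubes the Ets1-Fli1 bin was in B and the Ets2-Erg bin in A, and the same was seen after AraC. PC1 was divided by its standard deviation over the 4727 autosomal bins of the condition, since the size of PC1 differed between the matrices, and this quotient is called scaled PC1 below.

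The PC1 of the Ets1-Fli1 bin was 0.0375 in myoblasts, -0.850 in myotubes and -1.21 after AraC. As scaled PC1 these levels were 0.0437, -0.528 and -0.889. The bin thus passed from a marginal A value to B and lay deeper in B after AraC. In myoblasts its PC1 was larger in size than that of only 4.53% of the bins of chromosome 9, so the A assignment there rested on a value near 0. With the component taken from coefficients with other autosomes it was -0.0157 in scaled units, on the B side. The scaled change was -0.572 from myoblasts to myotubes, and 1.54% of autosomal bins had a lower change. From myoblasts to AraC-treated myotubes it was -0.933, and only 13 autosomal bins had a lower change. None of these lay on chromosome 9, of which 243 bins were measured. Between myotubes and AraC-treated myotubes it was -0.361, with 1.93% of autosomal bins lower.

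The PC1 of the Ets2-Erg bin was -0.126 in myoblasts, 0.871 in myotubes and 0.697 after AraC. As scaled PC1 these levels were -0.147, 0.541 and 0.513. The bin was weakly B in myoblasts and moderately A afterwards. In myoblasts its PC1 was larger in size than that of 10.5% of the bins of chromosome 16. The scaled change was 0.688 from myoblasts to myotubes, above that of 98.6% of autosomal bins. On chromosome 16, only 1 of 190 bins had a higher change. From myoblasts to AraC-treated myotubes it was 0.660, above that of 95.2% of autosomal bins. Between myotubes and AraC-treated myotubes the change was -0.0277, near the autosomal median of -0.00999.

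The distance between the loci widened along the same order of conditions. The scaled PC1 of Ets2-Erg minus that of Ets1-Fli1 was -0.190 in myoblasts, 1.07 in myotubes and 1.40 after AraC. The further widening after AraC came from the Ets1-Fli1 bin, whose scaled change from myotubes was -0.361, whereas the change of Ets2-Erg, -0.0277, narrowed the distance slightly.

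**Figure D1:**
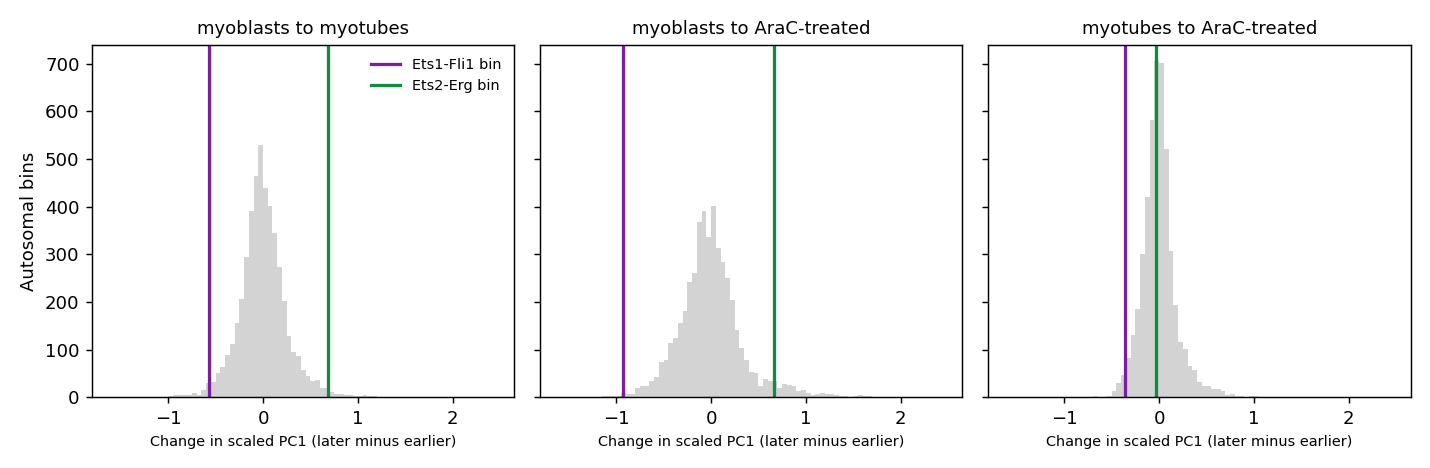
Scaled PC1 change (x axis, in standard deviations of PC1 over autosomal bins) of all autosomal bins as histograms (y axis, number of bins), a panel for each comparison, with lines at the Ets1-Fli1 and Ets2-Erg bins. From myoblasts to myotubes the lines stand in opposite tails, at -0.572 and 0.688, and in the last panel, the 2 myotube conditions, the Ets2-Erg line lies near the centre.

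The sign of PC1 assigned the TSS bin of Ets1 and Fli1 to A in myoblasts, on a value near 0, and to B in both myotube conditions. The TSS bin of Ets2 and Erg was assigned to B in myoblasts and to A in both myotube conditions. These calls do not hold for whole genes. The bin with most of the Fli1 gene body was B in every condition, and that with most of the Erg gene body was still B in myotubes. Among the 3579 autosomal bins with a protein-coding TSS, 5.09% left A for B and 3.32% left B for A between myoblasts and myotubes. With AraC-treated cells in place of myotubes these shares were 7.1% and 4.25%. The members' counts, 1 of the 2 bins in either direction in both comparisons, were fixed by their selection, and nothing is read from them. Between myotubes and AraC-treated myotubes, where 3.3% of bins left A for B and 2.21% left B for A, 0 of the 2 member bins changed sign.

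The interaction profile of a bin, its coefficients with every other bin of its chromosome, was also compared between conditions. A correlation (r) below 0 means that the profiles of the bin in the 2 conditions were not alike. The coefficients compare interaction profiles and are not contacts, so r does not show that contacts were exchanged. A partner below is the other bin of a coefficient. For the Ets1-Fli1 bin, r was -0.106 between myoblasts and myotubes, -0.0247 when myoblasts were set against AraC-treated cells, and 0.930 between the 2 myotube conditions. For the Ets2-Erg bin these values were -0.368, -0.259 and 0.785. Over autosomal bins the medians were 0.877, 0.839 and 0.947, so that both loci lay far below the median wherever myoblasts were compared. PC1 held less of the variance in myoblasts. On chromosome 9 its share was 42.9% in myoblasts, 76.1% in myotubes and 70.1% after AraC. On chromosome 16 these shares were 28.6%, 67.3% and 57.8%. Whether the weaker component bears on the myoblast PC1 and r values was not tested. No other bin of chromosome 16 had a lower r between myoblasts and myotubes than the Ets2-Erg bin, and on chromosome 9 there were 12 bins with a lower r than the Ets1-Fli1 bin. The r of Ets1-Fli1 between myoblasts and AraC-treated myotubes was so near 0 that its sign carries little. Among the bins with a protein-coding TSS, r was below 0 in 3.77% between myoblasts and myotubes, in 6.26% when AraC-treated cells took the place of myotubes, and in 1.03% between the myotube conditions. The member bins were below 0 in 2 of 2, 2 of 2 and 0 of 2 cases, which again follows from how they were chosen.

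The partners behind these profiles were grouped into bins of the same chromosome, over 2 Mb away, that kept a positive PC1 in all conditions (stable A) or a negative PC1 in all conditions (stable B). Since PC1 is computed from these same coefficients, this is another view of the change above and not a separate measurement. The mean coefficient of the Ets1-Fli1 bin with 69 stable A bins was 0.0184 in myoblasts, -0.0606 in myotubes and -0.0793 after AraC. With 122 stable B bins it was 0.0113, 0.0594 and 0.0617. In myoblasts this bin resembled A and B bins to nearly the same degree, and in both myotube conditions it resembled B bins and was opposed to A bins.

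The Ets2-Erg bin showed the mirrored order. Its mean coefficient with 58 stable A bins of chromosome 16 was -0.00458 in myoblasts, 0.0666 in myotubes and 0.0481 after AraC. With 109 stable B bins it was 0.0214, -0.0173 and -0.0115.

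The coefficients with the other autosomes do not enter PC1 as computed here, although they come from the same libraries and profiles. For the Ets1-Fli1 bin, the mean coefficient with 1409 stable A bins minus that with 2585 stable B bins of other autosomes was 0.00895 in myoblasts, -0.0934 in myotubes and -0.108 after AraC. For the Ets2-Erg bin, with 1417 A and 2603 B bins, the difference was -0.0163, 0.0843 and 0.0718. Partners on other chromosomes gave the same order of conditions as those on the loci's own chromosome. This is no separate support, since the bins were chosen for their change and the stable bins were defined by PC1 of the same matrices.

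**Figure D2:**
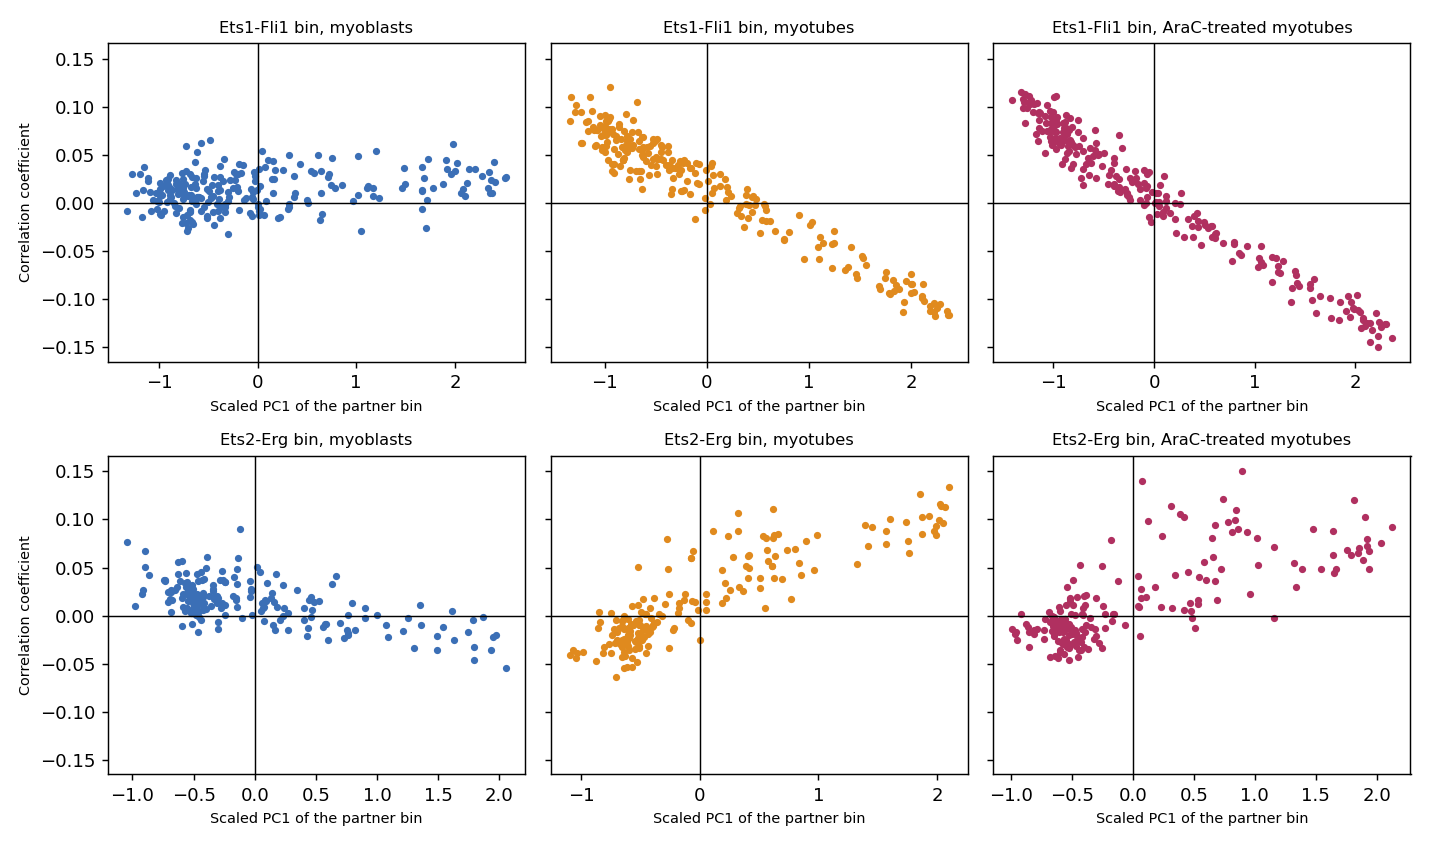
Correlation coefficient (y axis) of the Ets1-Fli1 bin (upper row) and the Ets2-Erg bin (lower row) with each other bin of its own chromosome. The x axis is the scaled PC1 of the partner bin, with a panel for each condition. The mean coefficient of the Ets1-Fli1 bin with stable A bins was 0.0184 in myoblasts and -0.0606 in myotubes. For the Ets2-Erg bin these means were -0.00458 and 0.0666.

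The bins with the highest coefficients on other autosomes gave named examples. In myoblasts the highest for Ets1-Fli1 was the bin of Klf6, a zinc-finger transcription factor gene, with a coefficient of 0.0692 and a scaled PC1 of 0.730 in myoblasts. In myotubes it was a bin of chromosome 15 that holds Drosha, the nuclease gene of microRNA processing, with a coefficient of 0.112 and a scaled PC1 of -1.12. In AraC-treated myotubes it was the bin of Bcl11a, a transcriptional repressor gene, with 0.130 and a scaled PC1 of -2.14. The leading partner was a B bin in both myotube conditions. In myoblasts it was an A bin, but the next partner, the bin of Aftph, Lgalsl and Sertad2, had nearly the same coefficient (0.0681) and a scaled PC1 of -0.543, so that the leading partners there were of both compartments.

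For Ets2-Erg the leading partner in myoblasts was a bin of chromosome 4 without a protein-coding TSS, with a coefficient of 0.0887 and a scaled PC1 of -1.73. In both myotube conditions it was the same bin of chromosome 11, which holds Enpp7 and the neuronal splicing factor gene Rbfox3. The coefficient was 0.180 in myotubes and 0.239 after AraC, and the scaled PC1 of that bin was 1.44 and 1.59.

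The surrounding 2 Mb on either side, 9 bins per locus, moved with the loci but not evenly. Each window holds a bin chosen for its change and the bins next to it. Its direction thus follows in part from the choice and is only described. Around Ets1-Fli1, scaled PC1 was lower in 9 of 9 bins in myotubes than in myoblasts, with a median change of -0.410. It was also lower in 9 of 9 bins in AraC-treated myotubes than in myoblasts, with a median of -0.680, and in 9 of 9 bins in AraC-treated myotubes than in myotubes, with a median of -0.273. Over chromosome 9 as a whole, 59.3% of bins were lower in myotubes than in myoblasts, 58.8% were lower after AraC than in myoblasts and 58.4% were lower after AraC than in myotubes.

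The Ets1-Fli1 bin stood at the edge between B chromatin on its lower side and 3 bins near 0 on its higher side. On the lower side in myoblasts, the bin with Arhgap32 and the inward rectifier potassium channel genes Kcnj1 and Kcnj5, which also holds most of the Fli1 gene body, had a scaled PC1 of -0.478. It was already B there and was -0.944 in myotubes and -1.16 after AraC, and its r was 0.796 between myoblasts and myotubes. Its r was thus well above that of the neighbouring Ets1-Fli1 bin, although it holds 64.5% of Fli1. On the higher side, the next bin, without a protein-coding TSS, was at -0.0449, -0.444 and -0.625. The only other bins of this window that changed sign were a bin without a protein-coding TSS 1 Mb away, at 0.0683, -0.342 and -0.656, and the bin of Kirrel3, an adhesion molecule gene, 1.5 Mb away, at 0.142, -0.271 and -0.544. Their r between myoblasts and myotubes was -0.207 and -0.253, lower than that of the Ets1-Fli1 bin.

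Around Ets2-Erg, scaled PC1 was higher in 8 of 9 bins in myotubes than in myoblasts, with a median change of 0.455, and in 9 of 9 bins in AraC-treated myotubes than in myoblasts, with a median of 0.537. Between myotubes and AraC-treated myotubes it was higher in 6 of 9 bins, with a median of 0.279. The Ets2-Erg bin was among the 3 that were lower in that last comparison. Over chromosome 16, 64.2% of bins were lower in myotubes than in myoblasts. After AraC, 61.1% were lower than in myoblasts and 54.2% were lower than in myotubes. As the window was set around a chosen bin, nothing is read from its contrast with these shares. The window lies near the end of chromosome 16, which is 2.21 Mb beyond the member bin.

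Within this window, the bin with Kcnj15 and most of the Erg gene body was B in myoblasts, with a scaled PC1 of -0.900. It was -0.279 in myotubes and 0.0801 after AraC, so that its sign differed from that of the Ets2-Erg bin in myotubes. The bin of Kcnj6, another inward rectifier gene, and of the kinase gene Dyrk1a lay 1 Mb away on the lower side and passed from -0.117 to 0.617 and 0.895, with an r of -0.352 between myoblasts and myotubes. It resembled the Ets2-Erg bin in myoblasts and myotubes, and was higher after AraC. On the other side, the bin with 10 protein-coding TSSs, the chromatin protein genes Brwd1 and Hmgn1 among them, passed from -0.147 to 0.236 and 0.391. Farther out, the bin of Bace2, Dscam and the interferon-induced gene Mx1 was -0.239, -0.266 and 0.124, changing sign only after AraC.

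**Figure D3:**
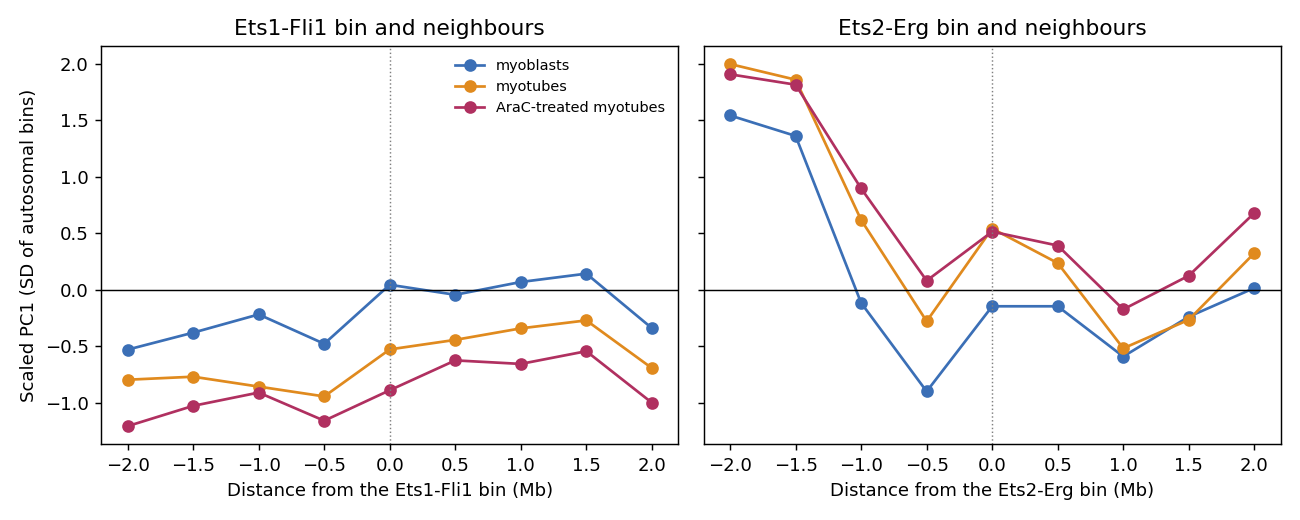
Scaled PC1 (y axis, in standard deviations over autosomal bins) of the 9 bins within 2 Mb of each locus against distance from the member bin (x axis, Mb), with a line for each condition. The Ets1-Fli1 panel shows the myoblast line above both others in all 9 bins, and the Ets2-Erg panel shows it below the AraC-treated line in all 9 bins.

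Coefficients between each member bin and its 8 window neighbours were also compared. The Ets1-Fli1 bin had a mean coefficient with the 4 bins on its lower side of 0.0421 in myoblasts, 0.0882 in myotubes and 0.0885 after AraC. With the 4 bins on its higher side it was 0.0173, 0.0340 and 0.0540. In each condition it was thus closer, on average, to the bins on the side of Fli1 than to those on the side of Ets1. The bins on the side of Fli1 were B in every condition, whereas in myoblasts some on the side of Ets1 had a PC1 above 0. The Ets2-Erg bin had a mean of 0.0340, 0.103 and 0.128 with the 4 bins on its lower side, where Erg and Kcnj6 lie. On its higher side, towards the chromosome end, the means were 0.0474, 0.0721 and 0.0942. In myoblasts the higher side gave the larger mean, and in both myotube conditions the lower side did. The lower side was uneven in myoblasts. The bin of Kcnj6 had a coefficient of 0.0902 and that with most of the Erg gene body 0.0672, both above the highest of the higher side, 0.0564. The bins 2 and 1.5 Mb away on the lower side had -0.012 and -0.0093.

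**Figure D4:**
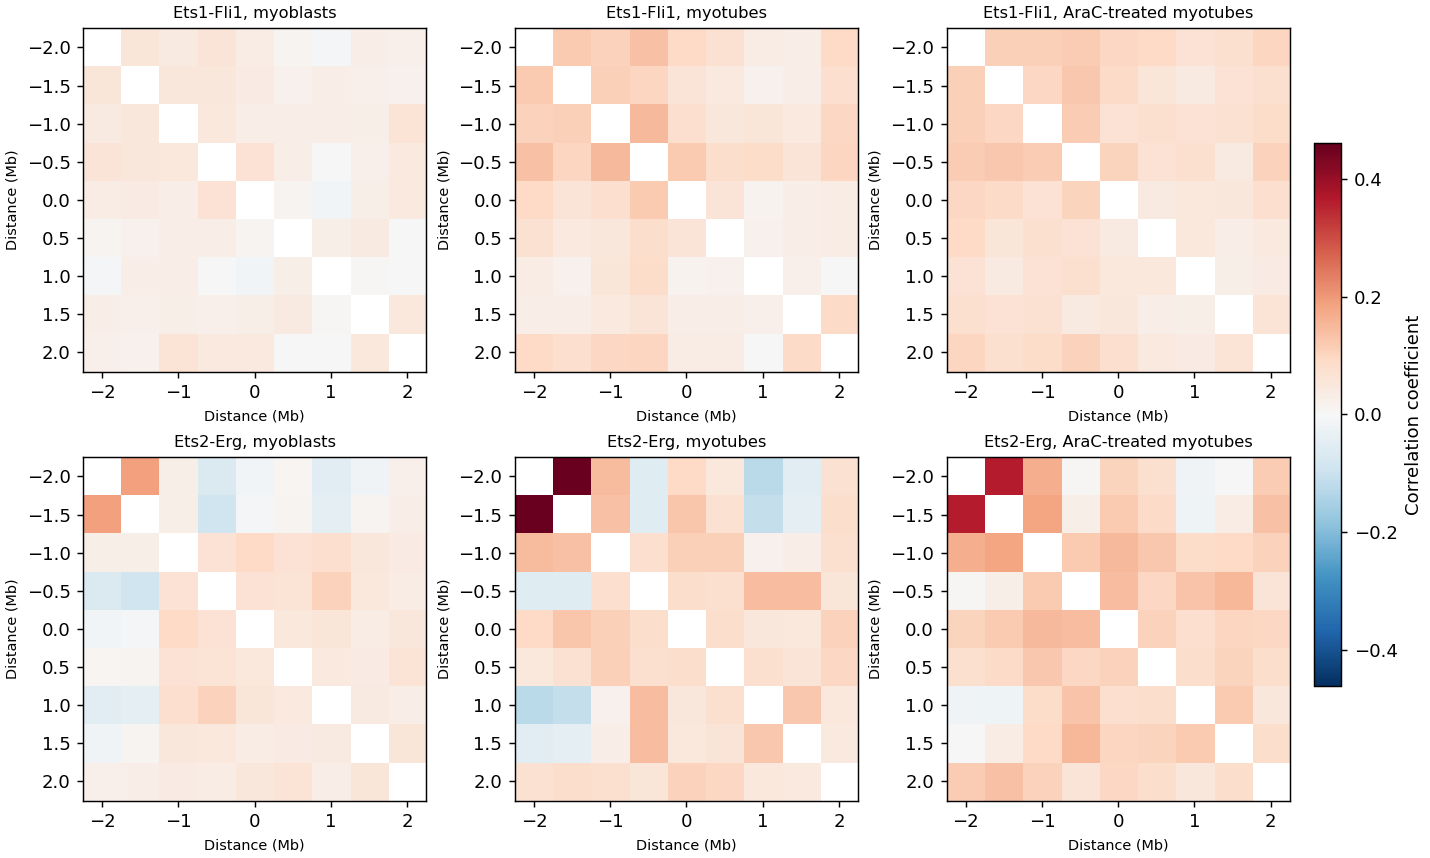
Correlation coefficients (colour) between the 9 bins of each window in each condition, with both axes as distance from the member bin in Mb. The mean coefficient of the Ets2-Erg bin with its 4 lower-side neighbours was 0.0340 in myoblasts and 0.128 in AraC-treated myotubes, and that of the Ets1-Fli1 bin was 0.0421 and 0.0885.

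The coefficient between the Ets1-Fli1 and Ets2-Erg bins themselves was 0.0259 in myoblasts, -0.0184 in myotubes and -0.0181 after AraC. It was above 76.8%, 33.0% and 34.7% of the 46170 pairs of bins of chromosomes 9 and 16. The standard deviation of those pairs was 0.0429, 0.0907 and 0.0758, so the coefficient lay within 1 standard deviation of their mean in every condition, and its change of sign was small on that scale.

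The other autosomal ETS family genes were in bins that kept their sign, with the exception of Erf and Elf2 when the columns of the matrix were not centred. Of 20 autosomal ETS genes outside the 2 pairs, in 19 bins, 13 were in A in all 3 conditions and 7 in B in all 3, and 0 had an r below 0 in any comparison. Of all bins with a protein-coding TSS, 5.09% left A for B, 3.32% left B for A and 3.77% had an r below 0 from myoblasts to myotubes. From myoblasts to AraC-treated myotubes these shares were 7.1%, 4.25% and 6.26%. Between the myotube conditions they were 3.3%, 2.21% and 1.03%. Beside such shares, 0 of 19 bins is near the background and is no result about this family. Their scaled change between myoblasts and myotubes ranged from -0.669 to 0.377, with a median of -0.0134, against -0.0119 over all autosomal bins. Between myoblasts and AraC-treated myotubes the range was -0.705 to 0.241, with a median of -0.0792, against -0.0229 over all autosomal bins. Between the myotube conditions the median was -0.0833, against -0.00999.

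Among these, Fev, the closest relative of Fli1 and Erg, was at a scaled PC1 of 1.97 in myoblasts, 2.03 in myotubes and 1.99 after AraC. Gabpa, which encodes the DNA-binding subunit of GA-binding protein and lies on chromosome 16 with Ets2 and Erg, was at -0.401, -0.401 and -0.467. Neither showed the large change of the members. Spi1, the PU.1 gene of blood cells, was at 2.14, 2.27 and 2.05. Etv2, a factor of endothelial development, was at -0.165, -0.191 and -0.168, about as close to the boundary in myoblasts as Ets2-Erg, and it stayed in B.

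Only Erf, Elf5 and Ehf had a scaled change larger than 0.5 in size between myoblasts and AraC-treated myotubes. Erf, a gene for an ETS repressor, was at 0.939 in myoblasts, 0.269 in myotubes and 0.234 after AraC, and so stayed in A. Elf5 and Ehf, neighbouring genes for epithelial ETS factors on chromosome 2, share a bin, which was at -0.316, -0.837 and -0.920. That bin had a change of -0.520 into myotubes, close in size to the -0.572 of Ets1-Fli1, yet it was B from the start and its r was 0.678. Among the autosomal ETS genes outside the pairs, Elf2 had the lowest r when myoblasts were set against AraC-treated cells, at 0.178. On the X chromosome, Elk1 was at 0.441, 0.189 and 0.0635 with an r of -0.0200 when myoblasts were set against AraC-treated cells, and Elf4 was at 0.446, 0.434 and 0.241.

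**Figure D5:**
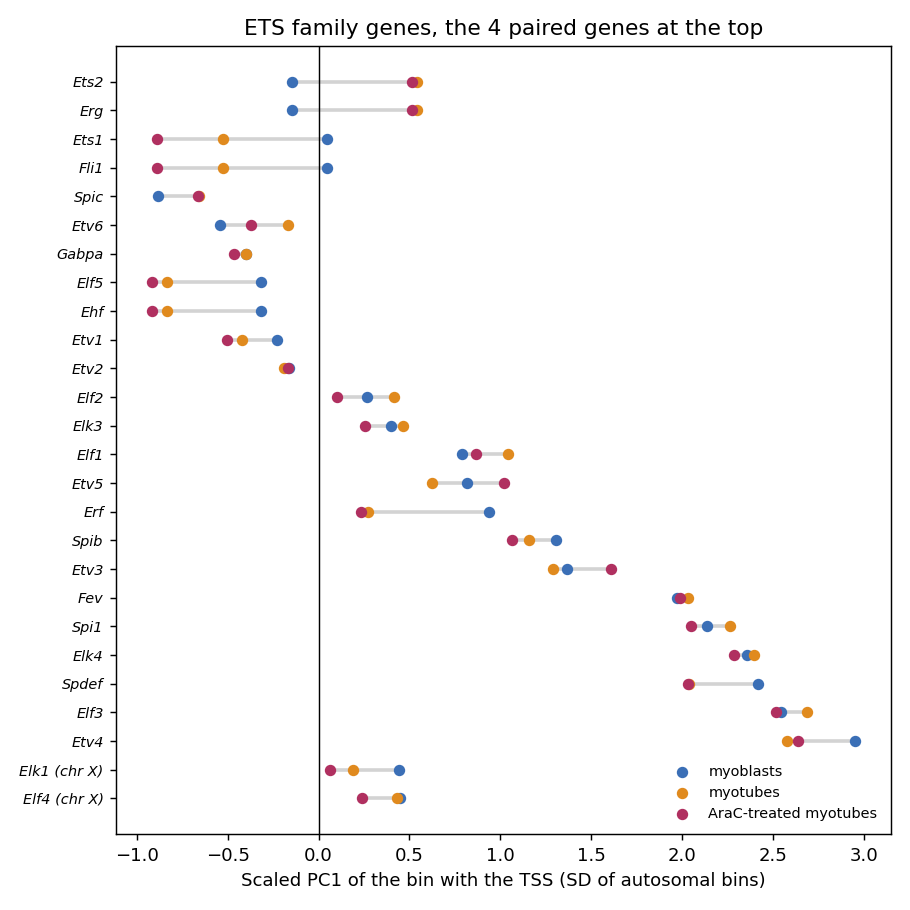
Scaled PC1 (x axis, in standard deviations over autosomal bins) of the bins of all listed ETS family genes (y axis), with a point for each condition. The TSS bin of Ets1 and Fli1 crosses 0 from right to left, starting at only 0.0437 in myoblasts. That of Ets2 and Erg crosses from left to right. The other genes keep their side of 0, Erf and Elf2 excepted with uncentred columns.

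The bins whose levels over the 3 conditions were most like those of the loci were found by the distance between their 3 scaled PC1 values, over autosomal bins with a protein-coding TSS and at least 5 Mb away. For Ets1-Fli1, the nearest was the bin of chromosome 1 that holds Msc, a basic helix-loop-helix repressor gene, and the ion channel gene Trpa1, at 0.0753, -0.521 and -0.731 (distance 0.162). The next were the bin of Apbb1ip, Gad2 and Pdss1 (distance 0.197) and that of Itga8 and Mindy3 (distance 0.197), both on chromosome 2. For Ets2-Erg, the nearest was the bin of Lyplal1 on chromosome 1, at -0.0417, 0.588 and 0.636 (distance 0.168). It was followed by the bin of Ntn1, the netrin-1 gene, and Pik3r5 on chromosome 11 (distance 0.172), and by a bin of chromosome 4 with 12 protein-coding TSSs, Agtrap and Clcn6 among them (distance 0.184).

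The base composition of the bins, which the choice did not use, differed between the loci. Hi-C fragments were cut with HindIII, whose site is AAGCTT, and the Ets1-Fli1 bin held 184 such sites, more than 89.9% of autosomal bins. The Ets2-Erg bin held 147, more than 22.8%, against a median of 162. GC content was 43.6% for Ets1-Fli1 and 46.4% for Ets2-Erg, against a median of 41.7%. CpG dinucleotides numbered 10.3 per kb and 11.3 per kb, against 8.13. These features are the same in every condition, and their part in the PC1 values was not tested.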

How the data were processed

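Hi-C was made from 6 libraries, 2 per condition. Per the labels and the study's methods, the authors digested chromatin with HindIII, mapped read pairs with HiCUP and Bowtie, pooled the replicates and used HOMER to make a matrix of 500 kb bins (5455 bins). The deposited values are correlation coefficients (a score without unit) between normalised interaction profiles. The labels name mm10 and GRCh38. Bin numbers matched GRCm38, except that 5 autosomes lacked the last partial bin.

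From each matrix, PC1 was computed per chromosome from the column-centred coefficients, signed by protein-coding TSS density (GENCODE M21), and divided by its standard deviation over autosomal bins. A profile correlation is Pearson's r over the other bins of the chromosome. The calculation was tested on simulated data. The work ran in Python 3.11.15 with NumPy 2.4.6 and, for figures, Matplotlib 3.10.9. Rank correlations used SciPy 1.17.1. With 1 pooled matrix per condition, no test was possible. Coefficients carry no counts, so no interval for depth can be given.

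Genes named are the 4 members, genes of their windows and of listed families, and the 3 bins most alike in pattern or highest in coefficient. Where a bin holds several genes, some are named. The members and lists were chosen with earlier results of these data known. The matrices had 0 columns of other samples. Alternatives were the component, centring, scaling, partner bins, neighbouring bins, rank correlation and thresholds.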

Additional observations from a re-analysis of the deposited data

How the results depend on the processing

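Of 138 values recomputed under alternative settings, 108 kept their direction or count, 17 moved and 13 reversed. Moved means by 0.25 or more in scaled PC1, 0.2 or more in r, 1 standard deviation of the pairs in a coefficient or over 1.5 times in a count, and 9 of the 108, in another unit (percentiles or multiples of a standard deviation), were judged by direction alone. The scaled changes of both member bins from myoblasts kept their direction under every alternative run. In the next lower bin, which holds most of the Fli1 or Erg gene body, the change from myoblasts to AraC-treated myotubes was -0.680 for Ets1-Fli1 and 0.980 for Ets2-Erg, and in the next higher bin it was -0.580 for Ets1-Fli1. The change from myoblasts to myotubes was 0.382 in the next higher bin of Ets2-Erg. With the component taken from coefficients with other autosomes, the Ets2-Erg change was 0.963 from myoblasts to AraC-treated myotubes and 0.0651, reversed, between the myotube conditions. That small last change also reversed in the next lower bin (0.359) and the next higher bin (0.155). The sign changes depended on myoblast values near 0. With the component from other autosomes, 1 of 2 member bins changed sign from myoblasts to myotubes and 1 from myoblasts to AraC-treated myotubes, since Ets1-Fli1 was then at -0.0157 in myoblasts. With bins of the Fli1 and Erg bodies the counts were 0, 1 and, between the myotube conditions, 1. Counting only values above the 20th percentile in size left 0 and 0 sign changes from myoblasts. The profile r of Ets1-Fli1 between myoblasts and myotubes was 0.796 in the next lower bin and 0.0858 in the next higher bin. Between myoblasts and AraC-treated myotubes it was 0.0108 as a rank correlation, 0.791 in the next lower bin and 0.142 in the next higher bin. For Ets2-Erg, r between myoblasts and myotubes was 0.882 in the next lower and 0.00273 in the next higher bin. Between myoblasts and AraC-treated myotubes it was -0.482 without bins within 2 Mb and 0.448 in the next lower bin. The coefficient between the loci in myotubes was 0.00606 as the mean of 3 by 3 bins and 0.0589 between the gene body bins. With uncentred columns, sign changes among the other autosomal ETS genes numbered 1 from myoblasts to myotubes (Erf), 2 from myoblasts to AraC-treated myotubes (Erf and Elf2) and 1 between the myotube conditions (Elf2). With the threshold on r at 0.2 in place of 0, 1 gene, Elf2, fell under it between myoblasts and AraC-treated myotubes. The cause of these differences was not tested. No paired analysis was possible because each condition is 1 matrix pooled over its replicates, which also leaves no replicate to leave out. Resolution and depth limit all values to bins of 500 kb, not genes.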

Other observations

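Endothelial and haematopoietic genes mark the cells in which Fli1 and Erg are best known. Of 13 such genes, 0 changed sign and 0 had a profile r below 0 in any comparison, with a median scaled change of 0.00568 from myoblasts to myotubes, against -0.0119 over all autosomal bins. Of all bins with a protein-coding TSS, 5.09% left A for B, 3.32% left B for A and 3.77% had an r below 0 in that comparison. From myoblasts to AraC-treated myotubes these shares were 7.1%, 4.25% and 6.26%, and between the myotube conditions 3.3%, 2.21% and 1.03%. Counts of 0 in lists this short are therefore near the background. Runx1, a regulator of blood formation on chromosome 16, was at 1.87 in myoblasts, 2.10 in myotubes and 2.12 after AraC. Kdr, a receptor gene for vascular endothelial growth factor, was in B throughout, at -0.577, -0.942 and -0.857. Cdh5, the gene of the endothelial adhesion molecule VE-cadherin, was also in B, at -0.518, -0.242 and -0.249. Flt1, Tek, Vwf and Sox17 were likewise in B in every condition. The endothelial genes Pecam1 (2.14, 2.44 and 2.38), Tie1 (1.24, 1.40 and 1.57) and Eng (3.58, 3.07 and 2.98) were in A throughout. From myoblasts to myotubes, the scaled changes of the list ranged from -0.516 for Eng to 0.307 for Pecam1.

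Of 6 extracellular protease genes in 5 bins, 0 changed sign in any comparison. Of all bins with a protein-coding TSS, 5.09% left A for B and 3.32% left B for A from myoblasts to myotubes. From myoblasts to AraC-treated myotubes these shares were 7.1% and 4.25%, so that 0 of 5 bins is again near the background. Over the 6 genes, the median scaled change was -0.235 from myoblasts to myotubes, against -0.0119 over all autosomal bins. From myoblasts to AraC-treated myotubes it was -0.357, against -0.0229. Mmp3 and Mmp13, matrix metalloproteinase genes in 1 bin of chromosome 9, were at -0.552, -0.833 and -0.909. Mmp10 lies in the bin next to theirs, so the medians rest in part on 1 region and are no result about protease genes. Of 5 muscle genes in 4 bins, only Ttn, the titin gene, changed sign. Of all bins with a protein-coding TSS, 3.32% left B for A from myoblasts to myotubes. A count of 1 in 4 bins is too small to set against that share. Ttn was at -0.152, 1.43 and 1.60, with an r of -0.522 between myoblasts and myotubes. Like the Ets2-Erg bin it was weakly B in myoblasts and in A afterwards, with a larger change. Myod1 and Myog, the genes of the myogenic factors MyoD and myogenin, were in A in all 3 conditions. The other myogenic factor genes of the list, Myf5 and Myf6, share a bin that was in B throughout, at -0.461, -0.519 and -0.550.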
